A study of Mus musculus with 6 samples.

Results

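The genes described here are the interferon-induced genes, interferon regulatory factors (IRFs) and signal transducers and activators of transcription (STATs) of the mouse heart. They were chosen by gene name, with earlier results of these data known: every protein-coding row of the expression table whose symbol begins as a guanylate-binding protein (Gbp), Ifit, Ifi, Oas, Irgm, Irf, Stat, Isg or Mx gene, with Igtp, Iigp1, Ifih1, Rsad2 and Usp18. This gave 78 of 55401 genes. By family they are 7 STATs, 9 IRFs, 11 GBPs, 5 immunity-related GTPases, 2 Mx genes, 6 IFITs, 12 OAS genes, 11 PYHIN (Ifi200) genes, 6 other Ifi genes and 5 genes of the ISG15 system or single effectors. Another 4, Irf2bp1, Irf2bp2, Irf2bpl and Isg20l2, match the name pattern but are binding partners or homologs outside these families. Poly(A) RNA was sequenced from hearts of C57BL/6 mice aged 6 to 8 weeks: 3 hearts of the group treated with angiotensin II (Ang II) and 3 hearts of the control group. The labels give neither the dose nor the duration of Ang II, a peptide hormone that constricts vessels and is used in mice to raise blood pressure and enlarge the heart. They name no gene alteration in either group, and each heart is 1 library.

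Interferons are secreted proteins that alert cells to viruses. Type I interferons bind the receptor of Ifnar1 and Ifnar2, whose kinases Jak1 and Tyk2 phosphorylate STAT proteins, STAT2 among them; these join IRF9 and bind the interferon-stimulated response element (ISRE) near the starts of target genes. Interferon gamma binds Ifngr1 and Ifngr2 and acts mainly through STAT dimers on the gamma-activated sequence (GAS). The targets include enzymes and GTPases that block viral RNA or attack the vacuoles of intracellular microbes, and many are transcribed at a low level in uninfected tissue, the heart included.

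Estimated counts summed to 51202916, 63564869 and 62954020 in the Ang II hearts and to 57504794, 57844780 and 53583726 in the control hearts, replicates 1, 2 and 3 in order, as in all lists of values here. Mitochondrial genes took 35.8% to 47.6% of them. The 78 genes together took 0.0664%, 0.0754% and 0.0788% of counts in the Ang II hearts, against 0.0657%, 0.089% and 0.0824% in the control hearts, with overlap through control replicate 1. As shares of the counts outside mitochondrial genes these were 0.106%, 0.119% and 0.123% in the Ang II hearts, against 0.125%, 0.142% and 0.14% in the control hearts. On this measure every Ang II heart lay below every control heart. Their summed FPKM, a level that also scales by transcript length, overlapped between the groups. It was 299.7, 213 and 222.3 in the Ang II hearts, against 203, 261.5 and 258.8 in the control hearts. Ang II replicate 1 had the highest sum, of which Ifi27l2a alone gave 130.7 FPKM. Ifi27l2a gave 31.0 and 34.8 FPKM in Ang II replicates 2 and 3, and 36.4, 54.3 and 59.5 FPKM in the control hearts. Cardiomyocyte markers were abundant, with Myh6 between 10010 and 21280 CPM, counts scaled to library size. Ang II replicate 1 stood apart: its log2 CPM differed from its nearest library by a root mean square of 1.21, against 0.717 to 0.864 for the other 5 libraries. It lay outside the range of the other 5 libraries in 50 of the 68 members tested, 25 below and 25 above. That is 73.5% of members and 62.6% of all tested genes, where each other library lay outside in 11.8% to 35.3% of members. Results are therefore given with and without it.

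The promoters of 4 members on which the results below turn, and of some of their relatives, are shown for the short motifs they share. RefSeq (GRCm38.p6) gave a promoter of 300 bases, 250 before and 50 after the start, for 58 of the 78 members. Capitals mark every match of the ISRE core, 2 copies of GAAA with any 2 bases between them, on either strand, and of TTCNNNGAA, the core of a GAS, which reads the same on both strands. Igtp, at chr11:58199306-58199605 on the plus strand, is the 1 member with an unadjusted edgeR p under 0.05 on the higher side in Ang II hearts. Gbp3 (the first of 2 starts, chr3:142559794-142560093), Gbp7 (chr3:142530086-142530385) and Ifi208 (chr1:173673415-173673714), all on the plus strand, are the 3 with the smallest p on the lower side. With all 6 libraries none of these 4 passed the adjusted threshold in edgeR. In Gbp3, 2 overlapping matches of the ISRE core lie on the opposite strand, as does the match in Gbp7.
Igtp: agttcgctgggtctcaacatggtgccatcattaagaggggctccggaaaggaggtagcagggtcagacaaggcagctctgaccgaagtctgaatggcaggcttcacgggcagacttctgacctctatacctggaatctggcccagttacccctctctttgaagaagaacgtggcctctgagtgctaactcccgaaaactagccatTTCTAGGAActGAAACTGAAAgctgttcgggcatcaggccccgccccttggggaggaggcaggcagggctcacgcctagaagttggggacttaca
Gbp3: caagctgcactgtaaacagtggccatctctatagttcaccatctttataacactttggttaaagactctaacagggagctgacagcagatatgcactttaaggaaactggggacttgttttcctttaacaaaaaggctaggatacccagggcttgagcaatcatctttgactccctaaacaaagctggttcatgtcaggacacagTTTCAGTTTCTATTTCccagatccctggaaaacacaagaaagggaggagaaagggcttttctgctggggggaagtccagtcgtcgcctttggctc
Gbp7: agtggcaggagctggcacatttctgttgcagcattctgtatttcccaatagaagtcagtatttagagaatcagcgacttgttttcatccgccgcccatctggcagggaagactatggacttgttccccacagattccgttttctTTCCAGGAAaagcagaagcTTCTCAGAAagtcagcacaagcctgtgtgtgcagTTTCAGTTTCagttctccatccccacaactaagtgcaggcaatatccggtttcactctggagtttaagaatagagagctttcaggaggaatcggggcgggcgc
Ifi208: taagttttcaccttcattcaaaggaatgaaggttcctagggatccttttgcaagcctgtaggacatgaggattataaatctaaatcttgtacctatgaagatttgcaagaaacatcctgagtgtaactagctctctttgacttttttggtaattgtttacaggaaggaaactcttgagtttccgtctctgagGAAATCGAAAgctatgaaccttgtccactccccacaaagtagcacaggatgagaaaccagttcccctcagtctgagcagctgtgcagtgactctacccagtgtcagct

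Of the 58 members with a promoter, 31 (53.4%) held the ISRE core, or 32 of their 71 promoters (45.1%), against 1131 of 32851 mouse promoters of the same length (3.44%). TTCNNNGAA stood in 13 members (22.4%) and 13 of 71 promoters (18.3%), against 2726 of 32851 promoters (8.3%). Both motifs stood in 6 members, Gbp5, Gbp7, Igtp, Irf2, Irgm2 and Oas1a, with no overlap between the motifs. The ISRE core was in 5 of 5 GBPs, 8 of 10 PYHIN genes, 5 of 6 IFITs, 3 of 4 immunity-related GTPases and 4 of 8 OAS genes, but in 1 of 8 IRFs, 2 of 6 STATs and 0 of the 4 members matched by name only. Of its 44 matches, 36 began within the 150 bases before the start. Windows of 30 bases around the match, read on the strand of the match, show how close some relatives are. The Igtp and Irgm2 windows differ at 1 of 30 bases, and the Ifit1 and Ifit1bl2 windows are the same stretch of DNA between 2 divergent genes. The Oas1a and Oas1g windows, at separate places, are the same, and so are those of Ifi208 and Ifi213. Isg15 and Irgm1 are shown for comparison.
Igtp window: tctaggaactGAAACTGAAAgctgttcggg
Irgm2 window: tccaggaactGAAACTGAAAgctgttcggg
Irgm1 window: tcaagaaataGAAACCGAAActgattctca
Isg15 window: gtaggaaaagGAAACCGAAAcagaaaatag
Ifit1 window: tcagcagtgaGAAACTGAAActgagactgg
Oas1a window: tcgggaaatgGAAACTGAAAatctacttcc
Ifi208 window: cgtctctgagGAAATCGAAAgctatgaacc
A match is a description of the letters, not of binding. The log2 difference between the groups had a median of -0.24 over the 29 tested members with the ISRE core, 24 of them below 0, and of -0.12 over the 23 tested members with a promoter and no match, 20 of them below 0. Whether these differ was not tested.

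Most of these genes lay somewhat lower in the Ang II group than in the control group. In Ang II replicate 1, 34 of 68 tested members lay above the control mean, against 16 in each of replicates 2 and 3. Gbp3, Gbp7, Gbp9, Ifi208, Stat2, Mx2, Ifit3b and Oasl2 were the 8 with an unadjusted p under 0.05 on the lower side. Igtp, a GTPase of the same defence system, was the 1 on the higher side. None of these 9 passed the adjusted threshold in the edgeR test of all 6 libraries. Of the 78 members, 10 were too low to test: Oas1d, Oas1e, Oas1f and Oas1h had 0 counts in every library, and Ifi202b, Ifi214, Stat4, Gbp11, Ifi27l2b and Ifi44l had few. The other 68 had enough counts in at least 3 libraries, which can be those of 1 group, and were tested with edgeR's quasi-likelihood test. Levels were low: 48 members reached a mean of 1 FPKM, a level scaled to depth and transcript length, in either group and 12 reached 5. No member passed a Benjamini-Hochberg adjusted p of 0.05 over all tested genes with all 6 libraries, where 6 of 16759 genes did (0.0358%). At an unadjusted p under 0.05, 8 of 68 members (11.8%) were lower in Ang II hearts, where 3.94% of all tested genes were, and 1 (1.47%) was higher, where 3.57% were. DESeq2 on the same genes called 3 members, Ifi208, Gbp3 and Gbp7, all lower, with adjusted p of 0.00137, 0.00827 and 0.0134, where it called 1.65% of all genes. Its unadjusted p was under 0.05 for 10 members on the lower side, against 4.67% of genes, and for 1 on the higher side, against 4.83%.

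The log2 difference of Ang II from control was below 0 for 52 of the 68 tested members and above 0 for 16, with a median of -0.20. Over all 16759 tested genes 8222 were below 0 and 8537 above, with a median of 0.01. All 3 Ang II hearts lay below all 3 control hearts for 18 members (26.5%), where 9.21% of tested genes did so, and above them for 1, Igtp (1.47%), where 7.97% did so. Without Ang II replicate 1 the median was -0.37, and 54 members lay below 0. In that fit 1 member was called, Igtp, where 0.73% of 17661 genes were called. At an unadjusted p under 0.05, 23 members (33.8%) were then lower, where 7.6% of genes were, and 4 (5.88%) were higher, where 7.75% were. The remaining Ang II hearts lay below all control hearts for 38 members (55.9%), against 17.2% of genes, and above them for 7 (10.3%), against 18.1% of genes.

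**Figure D1:**
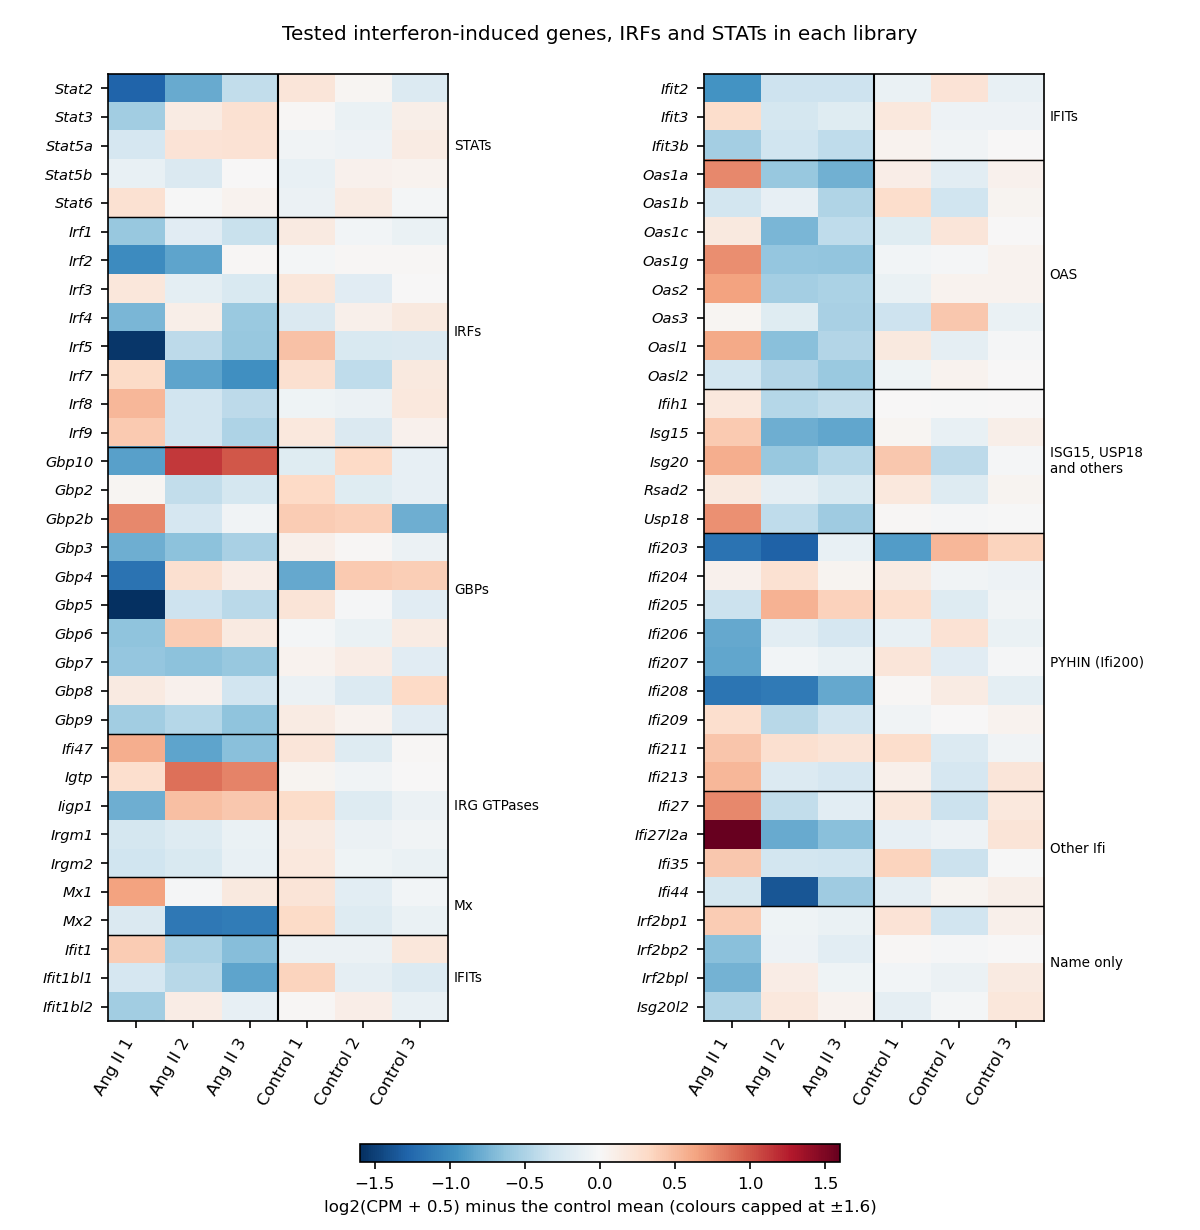
Level in each library of the tested members named, as log2(CPM + 0.5) minus the mean of the 3 control hearts, with the Ang II hearts in the left 3 columns of each panel and the control hearts in the right 3; blue is below and red above the control mean, and colours are capped at 1.6. Blue prevails in Ang II replicates 2 and 3, while Ang II replicate 1 holds both the strongest blue and the strongest red cell.

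Ligands, receptors and kinases above the STATs were read from lists set beside the members. None of the 10 listed interferon genes was tested: 9, Ifnb1 included, had 0 counts in every library, and Ifng had 4 counts in Ang II replicate 3 and 0 in the rest. A count of 0 at these depths does not show that no cell made the RNA. All 6 receptor genes were tested and 5 had a log2 difference above 0. None had an unadjusted edgeR p under 0.05 with all 6 libraries. Ifnar1 stood at 22, 14.4 and 13.4 CPM in Ang II hearts, against 15.5, 14.2 and 16.7 CPM in control hearts, so that the groups overlapped. Ifngr1 varied more, with 36.1, 20.9 and 46.4 CPM in Ang II hearts, against 15.4, 29.3 and 11.8 CPM in control hearts, again with overlap. Of 4 Janus kinases, Jak1, which serves both receptor types, had 75, 94.9 and 97.8 CPM in Ang II hearts, against 65.0, 68.4 and 61.4 CPM in control hearts. Every Ang II heart was above every control heart, with a log2 difference of 0.46 (SE 0.16, edgeR adjusted p = 0.583). Tyk2, Jak2 and Jak3 had an unadjusted p above 0.05 with all 6 libraries. In 2 of the 4 kinases, Jak1 among them, every Ang II heart was above every control heart, where 7.97% of tested genes were. Among 12 inhibitors of the pathway, Socs2 was higher (log2 difference 0.50, adjusted p = 0.567) and Socs3 lower (-1.13, adjusted p = 0.593), both with an unadjusted p under 0.05. Socs3, a feedback inhibitor of STAT3 signalling, stood at 6.65, 4.59 and 3.63 CPM in Ang II hearts, against 5.36, 13.7 and 13.5 CPM in control hearts, with control replicate 1 among the Ang II values. Of 14 sensors and adaptors that start interferon production, 10 lay below 0, and Tlr3, an endosomal receptor for double-stranded RNA, was the 1 with an unadjusted p under 0.05 (log2 difference -0.62, adjusted p = 0.523). Without Ang II replicate 1, edgeR's unadjusted p was under 0.05 on the higher side for 1 receptor, 2 kinases, 2 inhibitors and 0 sensors. On the lower side it was under 0.05 for 0 receptors, 1 kinase, 1 inhibitor and 4 sensors. Over all tested genes these shares were 7.75% higher and 7.6% lower.

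Among the STATs, Stat2 was the 1 member with an unadjusted edgeR p under 0.05. Stat2, a transducer of type I interferon signals (chr10:128270559-128292849), had 5.96, 8.46 and 11.5 CPM in Ang II hearts, against 17.4, 15.5 and 13.0 CPM in control hearts. The groups did not overlap, but Ang II replicate 3 came close to control replicate 3. Its log2 difference was -0.82 (SE 0.26, adjusted p = 0.544), and the unadjusted p was above 0.05 without control replicate 1. Stat3, which carries signals of the interleukin 6 family, had 26.5, 43.1 and 46.7 CPM in Ang II hearts, against 39.7, 36.4 and 41.8 CPM in control hearts. Here Ang II replicates 2 and 3 lay above all control hearts and replicate 1 below them, and the log2 difference was -0.02 with all libraries and 0.20 without replicate 1. Stat5a showed the same order, with 5.68, 8.18 and 8.26 CPM in Ang II hearts, against 6.67, 6.56 and 7.65 CPM in control hearts. Stat3 and Stat5a overlap on opposite strands, as do Stat6 and Nab2, and whether counting used the strand is not stated. Stat5b stood at 22.4, 20.7 and 24.4 CPM in Ang II hearts, against 22.3, 25.6 and 25.2 CPM in control hearts. Stat6, the mediator of interleukin 4 signals and by FPKM the STAT with the highest mean, had 43.0, 36.0 and 37.9 CPM in Ang II hearts, against 34.0, 39.7 and 35.5 CPM in control hearts. Neither gene separated the groups. Stat4 had counts in 2 of the 6 libraries and was not tested.

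All 9 IRFs had a log2 difference below 0 (median -0.39), and none had an unadjusted edgeR p under 0.05; Irf8, at -0.01, was above 0 under median-of-ratios and upper-quartile scaling and in DESeq2. Irf1, an activator induced by interferon gamma, had 18.3, 24.8 and 22 CPM in Ang II hearts, against 31.3, 27.5 and 26.2 CPM in control hearts. No Ang II heart reached the control range (log2 difference -0.39, SE 0.17, adjusted p = 0.667). Irf5, which acts downstream of Toll-like receptors in myeloid cells, had 0.92, 2.63 and 2.25 CPM in Ang II hearts, against 5.3, 3.05 and 3.07 CPM in control hearts. These groups did not overlap either (-0.97, SE 0.44, adjusted p = 0.679). Irf2, an antagonist of IRF1 at many promoters, had 5.59, 6.32 and 11.9 CPM in Ang II hearts, against 11.4, 11.9 and 11.9 CPM in control hearts. Ang II replicate 3 was at the control level and the other Ang II hearts lay below it. Irf3, which switches on interferon genes after viral sensing, had 24.1, 18.9 and 17.9 CPM in Ang II hearts, against 24.0, 18.6 and 21.4 CPM in control hearts, without separation. Irf1, Irf3 and Irf5 overlap Gm17334, Bcl2l12 and Tnpo3 in turn on the opposite strand. Reads of these neighbours may be included if counting did not use the strand.

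Irf7, Irf8 and Irf9 split the Ang II hearts. Irf7, the amplifier of type I interferon production and itself interferon-induced, had 18, 7.79 and 7.1 CPM in Ang II hearts, against 17.4, 10.7 and 16.1 CPM in control hearts. Irf9, the DNA-binding partner of STAT2, had 24.8, 14.9 and 13.0 CPM in Ang II hearts, against 20.8, 15.7 and 19.4 CPM in control hearts. Irf8, a factor of macrophages and dendritic cells, had 7.45, 3.95 and 3.6 CPM in Ang II hearts, against 4.75, 4.62 and 5.65 CPM in control hearts. In each, replicate 1 was the highest of all 6 libraries and replicates 2 and 3 were the lowest. Without replicate 1 the log2 differences were -0.98 for Irf7 (adjusted p = 0.144), -0.42 for Irf9 (adjusted p = 0.287) and -0.41 for Irf8 (adjusted p = 0.338), with an unadjusted p under 0.05 for Irf7 and Irf9. Irf9 overlaps Rnf31 and Irf8 overlaps Gm20388 on the same strand, so their reads may be shared. Irf7 overlaps Phrf1 on the opposite strand. Irf4, a factor of lymphocytes, had 0.529, 1.32 and 0.632 CPM in Ang II hearts, against 0.963, 1.31 and 1.4 CPM in control hearts.

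The GBPs held 3 of the 8 members that were lower at an unadjusted p under 0.05. These GTPases assemble on pathogen vacuoles after interferon gamma, and 7 of 10 tested were below 0 (median -0.24). Gbp3 (chr3:142560026-142573209) had 10.7, 11.8 and 13.0 CPM in Ang II hearts, against 19.96, 19.0 and 17.5 CPM in control hearts. Gbp7 (chr3:142530342-142550149), in the same cluster, had 9.06, 8.78 and 9.08 CPM in Ang II hearts, against 14.8, 15.3 and 12.4 CPM in control hearts. Gbp9 (chr5:105077630-105110277) had 14.9, 16.1 and 13.9 CPM in Ang II hearts, against 24.4, 23.0 and 19.4 CPM in control hearts. In all 3 genes every Ang II heart lay below every control heart. The log2 differences were -0.67 (SE 0.15, adjusted p = 0.365) for Gbp3, -0.66 (SE 0.15, adjusted p = 0.39) for Gbp7 and -0.57 (SE 0.15, adjusted p = 0.479) for Gbp9. Each kept an unadjusted p under 0.05 whichever library was left out. In the GENCODE annotation Gbp9 overlaps Gbp8 and Gbp4 on the same strand, so reads may be split among them.

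Gbp2, the most expressed GBP by FPKM, had 21.4, 15.8 and 17.1 CPM in Ang II hearts, against 26.2, 18.3 and 19.0 CPM in control hearts, with overlap through replicate 1 of the Ang II group. Gbp5, an activator of the NLRP3 inflammasome, had 2.48, 8.04 and 7.48 CPM in Ang II hearts, against 11.8, 10.1 and 8.94 CPM in control hearts. Its groups did not overlap, and Ang II replicate 1 was far below the rest (log2 difference -0.77, SE 0.42, adjusted p = 0.722). Gbp10 went the other way, with 0.115, 1.95 and 1.74 CPM in Ang II hearts, against 0.481, 0.901 and 0.527 CPM in control hearts. Replicate 1 was the lowest of the 6 libraries and replicates 2 and 3 the highest; without replicate 1 the log2 difference was 1.52 (adjusted p = 0.147). Gbp4, Gbp6, Gbp8 and Gbp2b overlapped between the groups, and Gbp6 and Gbp10 both overlap Gm43302 on the same strand.

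Of the 5 immunity-related GTPases, 3 were below 0 and 2 above, and Igtp was the 1 with an unadjusted p under 0.05. Igtp, an immunity-related GTPase of the endoplasmic reticulum that guards against vacuolar parasites (chr11:58199556-58207591), had 14.8, 22.8 and 21.5 CPM in Ang II hearts, against 12.6, 11.7 and 12.2 CPM in control hearts. Every Ang II heart was above every control heart, and replicates 2 and 3 were further above than replicate 1. The log2 difference was 0.70 (SE 0.19, adjusted p = 0.489) with all 6 libraries. It was 0.87 (SE 0.10, adjusted p = 0.039) without Ang II replicate 1, a fold of 1.82, and its unadjusted p stayed under 0.05 whichever library was left out. Irgm2, whose annotated span overlaps Igtp on the same strand, had 14.5, 15.3 and 16.7 CPM in Ang II hearts, against 20.6, 17.3 and 16.9 CPM in control hearts. Irgm1, a regulator of the other family members, had 14.7, 15.5 and 16.6 CPM in Ang II hearts, against 19.9, 16.8 and 17.2 CPM in control hearts. In both, the Ang II hearts lay just below the lowest control heart, with log2 differences of -0.24 (SE 0.15) and -0.20 (SE 0.14). Igtp and Irgm2, whose promoter windows are nearly the same letters, had differences of opposite sign; reads shared by their overlap could not be separated.

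Iigp1, an effector GTPase, had 14.1, 34.4 and 33.2 CPM in Ang II hearts, against 30.4, 21.3 and 23.0 CPM in control hearts. Replicate 1 was the lowest and replicates 2 and 3 the highest of the 6 (without replicate 1, log2 difference 0.44, adjusted p = 0.292). Ifi47, another GTPase of the family, showed the reverse, with 6.26, 2.02 and 2.33 CPM in Ang II hearts, against 4.66, 3.41 and 4.07 CPM in control hearts. Its span overlaps Olfr56 on the same strand.

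**Figure D2:**
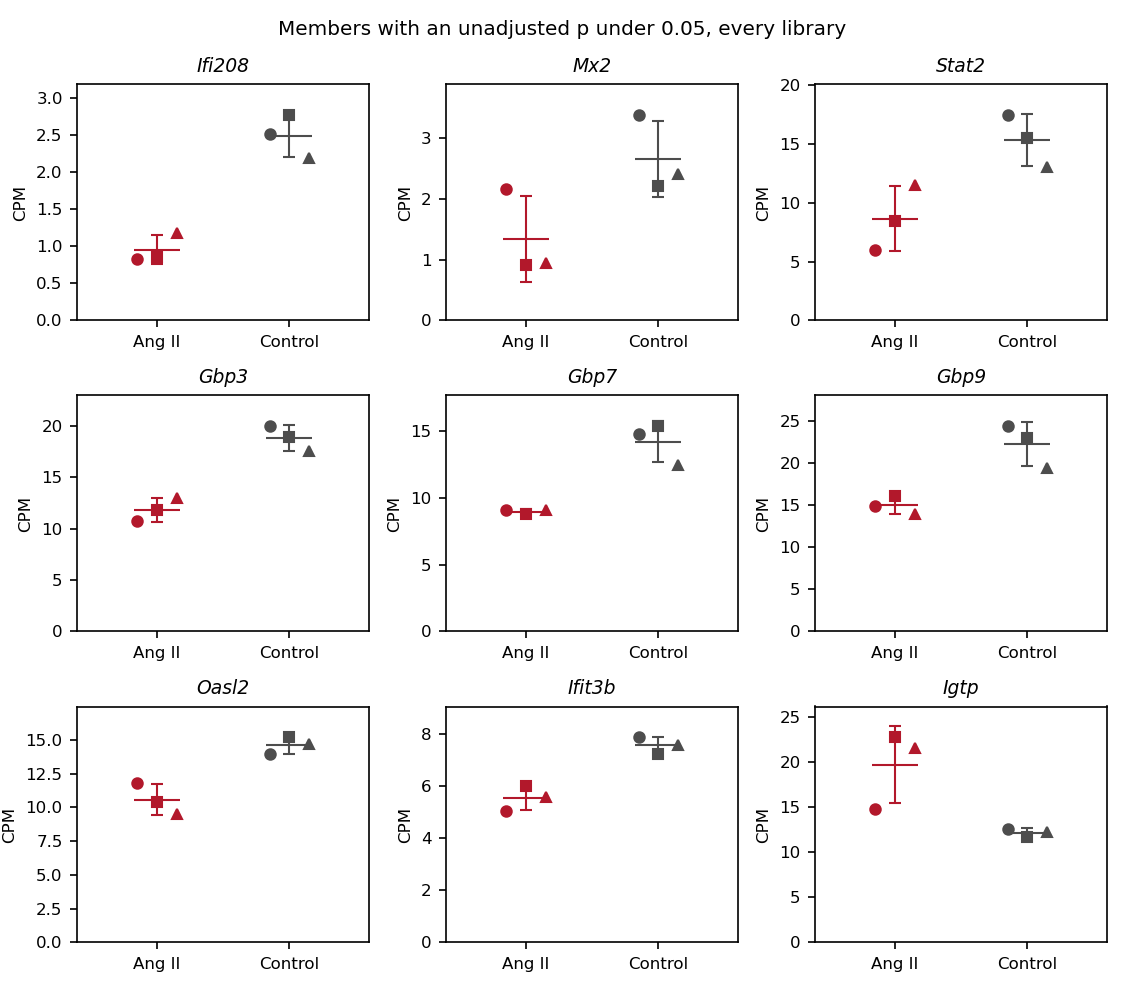
CPM in every library of the 9 members with an unadjusted edgeR p under 0.05, with Ang II on the left and control on the right of each panel; lines are means, bars are SD (n = 3 hearts each), and circles, squares and triangles are replicates 1, 2 and 3. No Ang II value overlaps a control value in any panel, and Igtp is the 1 panel in which Ang II is higher.

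Mx2, a gene of the Mx GTPase family, had 2.16, 0.91 and 0.942 CPM in Ang II hearts, against 3.37, 2.21 and 2.4 CPM in control hearts. Ang II replicate 1 was just under the lowest control heart. The log2 difference was -0.999 (SE 0.41, adjusted p = 0.658), and leaving out any library other than Ang II replicate 1 took the unadjusted p above 0.05. Mx1, of which C57BL/6 mice carry a defective allele, had 1.77, 0.939 and 1.12 CPM in Ang II hearts, against 1.18, 0.796 and 0.909 CPM in control hearts, with overlap. RNA levels do not show whether either Mx gene gives a working protein.

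The IFITs, which bind foreign RNA and block its translation, were below 0 in 6 of 6 tested (median -0.33), and Ifit3b was the 1 with an unadjusted p under 0.05. Ifit3b had 5.04, 5.97 and 5.58 CPM in Ang II hearts, against 7.86, 7.21 and 7.58 CPM in control hearts. The groups did not overlap (log2 difference -0.45, SE 0.16, adjusted p = 0.583), but the unadjusted p was under 0.05 in 2 of 6 fits that each left out 1 library. Ifit2 had 5.45, 8.62 and 8.66 CPM in Ang II hearts, against 10.2, 12.9 and 10.1 CPM in control hearts, also without overlap (-0.55, SE 0.23, adjusted p = 0.662). Ifit1 had 8.99, 4.54 and 3.98 CPM in Ang II hearts, against 6.22, 6.23 and 7.63 CPM in control hearts. Ifit3 had 24.7, 16.6 and 17.8 CPM in Ang II hearts, against 22.8, 19.1 and 19.2 CPM in control hearts. For Ifit1 and Ifit3, Ang II replicate 1 was the highest library and replicates 2 and 3 the lowest. Ifit3 and Ifit3b are near-identical copies, as are parts of Ifit1 and its relatives, so their counts are uncertain between copies.

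The 2'-5'-oligoadenylate synthetase (OAS) family includes enzymes that, on double-stranded RNA, make the second messenger that activates RNase L. All 8 tested genes of the family were below 0 (median -0.22), and Oasl2 was the 1 with an unadjusted p under 0.05. Oasl2 (chr5:114896936-114912234) had 11.8, 10.4 and 9.52 CPM in Ang II hearts, against 14.0, 15.2 and 14.7 CPM in control hearts. No value overlapped (log2 difference -0.47, SE 0.15, adjusted p = 0.542), and the unadjusted p was under 0.05 in 3 of 6 fits with 1 library left out. Its promoter held no match of either motif. Oas2, the family's most expressed member by FPKM, had 39.6, 17.1 and 17.5 CPM in Ang II hearts, against 23.3, 26.3 and 26.1 CPM in control hearts. Oas1a had 10.7, 3.8 and 3.35 CPM in Ang II hearts, against 6.54, 5.33 and 6.36 CPM in control hearts. In both, replicate 1 was above all control hearts and replicates 2 and 3 below them, so the 6-library differences, -0.03 and -0.04, were near 0. Without replicate 1 they were -0.54 (adjusted p = 0.102) and -0.76 (adjusted p = 0.132), and the family's median was -0.74, with 5 of 8 lower at an unadjusted p under 0.05, where 7.6% of all tested genes were. Oas1a and Oas1g are close copies.

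The ISG15 system and single effectors split in the same way. Isg15, a ubiquitin-like modifier, had 8.58, 3.44 and 3.32 CPM in Ang II hearts, against 6.43, 5.71 and 6.69 CPM in control hearts. Usp18, which removes ISG15 and damps the type I receptor, had 8.93, 3.77 and 3.33 CPM in Ang II hearts, against 5.27, 5.09 and 5.16 CPM in control hearts. Ifih1, the cytosolic RNA sensor MDA5, had 10.3, 6.51 and 6.82 CPM in Ang II hearts, against 9.13, 9.02 and 9.12 CPM in control hearts. Each had Ang II replicate 1 above and replicates 2 and 3 below all control hearts. Without replicate 1 the log2 differences were -0.89 for Isg15 (adjusted p = 0.0856), -0.54 for Usp18 (adjusted p = 0.192) and -0.45 for Ifih1 (adjusted p = 0.157), each with an unadjusted p under 0.05. With it they were -0.30, 0.04 and -0.21, and none had an unadjusted p under 0.05. Isg20, an exonuclease for RNA, had 6.39, 2.55 and 2.88 CPM in Ang II hearts, against 5.76, 2.97 and 4.05 CPM in control hearts. Rsad2, the antiviral enzyme viperin, had 16.6, 13.4 and 12.5 CPM in Ang II hearts, against 16.7, 12.8 and 15.4 CPM in control hearts, with no separation.

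The PYHIN genes, a cluster on chromosome 1 whose proteins bind DNA, lay on both sides of the control level: 5 of 9 tested were below 0. Ifi208 (chr1:173673675-173698395) had the smallest unadjusted edgeR p of all 68 members. It had 0.828, 0.853 and 1.18 CPM in Ang II hearts, against 2.52, 2.76 and 2.18 CPM in control hearts, from 36, 60 and 84 counts against 115, 184 and 120. The means were 0.954 ± 0.197 CPM in Ang II hearts and 2.49 ± 0.292 CPM in control hearts (SD, n = 3 each), with no overlap. The log2 difference was -1.38 (SE 0.26, adjusted p = 0.314), and its unadjusted p was under 0.05 whichever library was left out. Ifi203, by contrast, had 11.5, 10.6 and 24.7 CPM in Ang II hearts, against 14.2, 38.9 and 34.5 CPM in control hearts, a spread within each group that overlapped. Ifi205 had 9.73, 18.5 and 16.2 CPM in Ang II hearts, against 15, 10.7 and 11.9 CPM in control hearts, with replicates 2 and 3 above all control hearts (without replicate 1, log2 difference 0.47, adjusted p = 0.279). Ifi203 and Ifi211 overlap Mndal on the same strand, and these tandem copies can share reads.

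Of the other Ifi genes, Ifi44 had 4.03, 1.64 and 3.2 CPM in Ang II hearts, against 4.49, 5.15 and 5.38 CPM in control hearts. All Ang II hearts were below all control hearts (log2 difference -0.76, SE 0.34, adjusted p = 0.671). Ifi27, a mitochondrial protein in human cells, had 34.0, 14.8 and 17.5 CPM in Ang II hearts, against 22.3, 15.4 and 22.1 CPM in control hearts. Ifi35, a partner of Nmi, had 27.4, 16.4 and 16.1 CPM in Ang II hearts, against 26.0, 15.8 and 20.2 CPM in control hearts. Neither separated the groups. Ifi27l2a, the most abundant member per length, had 131, 31.0 and 34.8 FPKM in Ang II hearts, against 36.4, 54.3 and 59.5 FPKM in control hearts. Ang II replicate 1 was above the highest control heart and the other Ang II hearts were below the lowest, and the log2 difference turned to -0.77 without replicate 1 (adjusted p = 0.0974), against 0.51 with it. The 4 members matched by name only had log2 differences of -0.29 to 0.08.

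**Figure D3:**
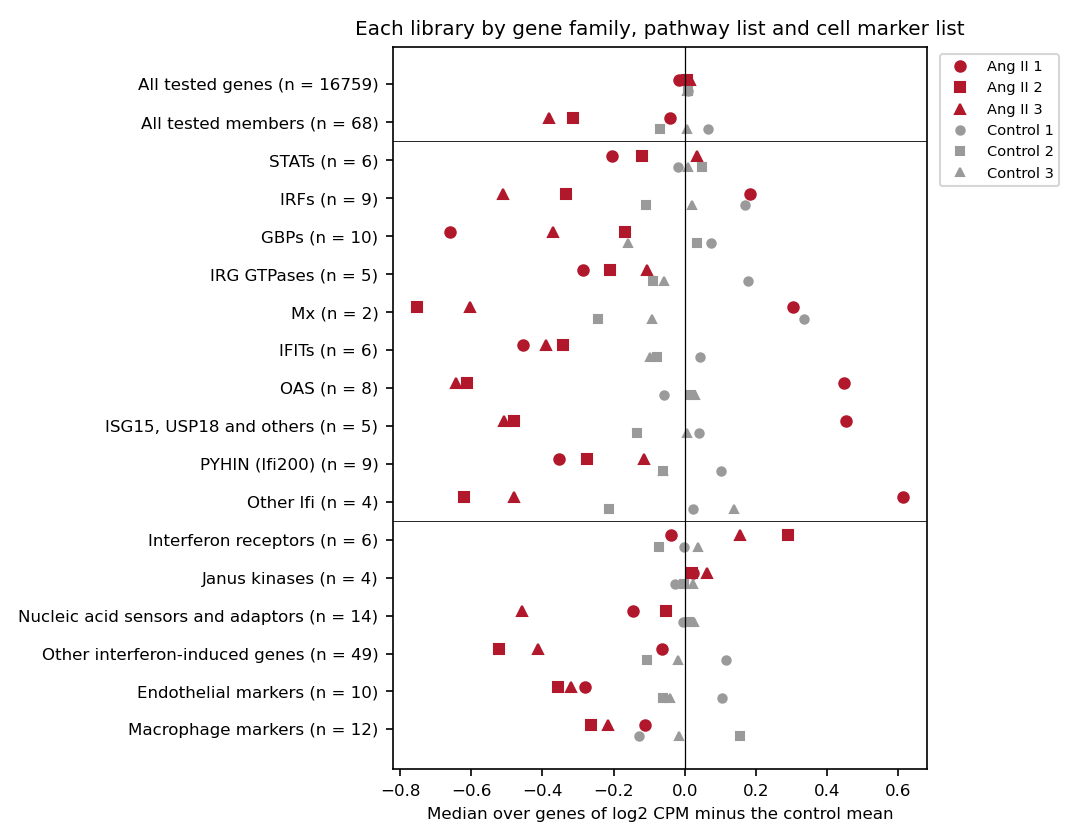
Median over the tested genes of each family, pathway list and marker list of log2 CPM in a library minus the mean of the control hearts, 1 symbol per library, red for Ang II and grey for control. Over all members the medians are -0.04, -0.31 and -0.38 in Ang II replicates 1, 2 and 3, and over the OAS genes 0.45, -0.61 and -0.64.

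Across the members, Ang II replicate 1 lay on the other side of the control mean from both replicates 2 and 3 in 35 of 68. Its position went with transcript length. On the log2 CPM scale, replicate 1 minus the mean of replicates 2 and 3 had a median of 1.23 over the 5 tested members with a longest transcript under 1500 nt, 0.45 over the 24 from 1500 to under 3000 nt and -0.13 over the 39 of 3000 nt or more. Spearman's rho with length was -0.42 over these 68 members, which share the same 3 libraries, and is given as a description. Over 16739 tested genes with a length the 3 medians were 0.48, 0.10 and -0.17, with rho -0.25. The part of length in the members' results was not tested.

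**Figure D4:**
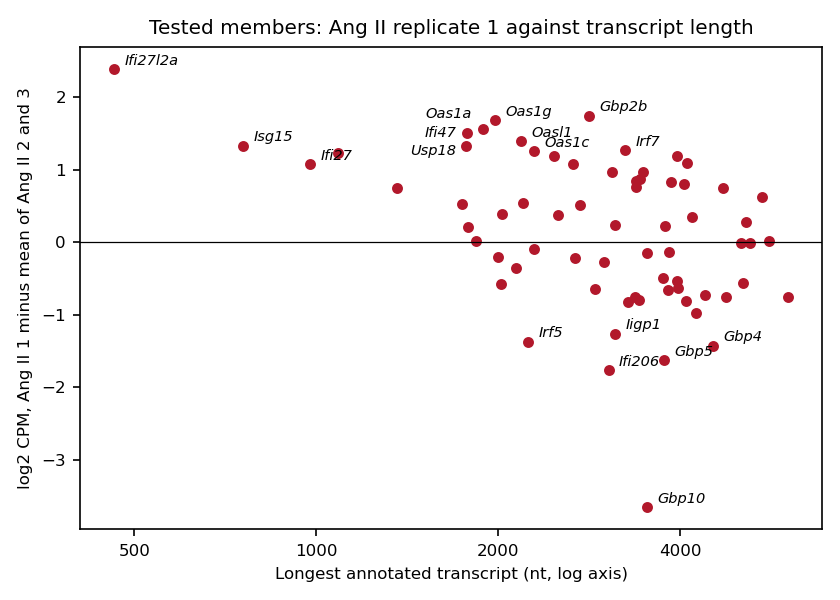
Each tested member's longest annotated transcript in nucleotides (log axis) against its log2 CPM in Ang II replicate 1 minus the mean of Ang II replicates 2 and 3. The 5 members under 1500 nt all lie above 0, and Gbp10 lies lowest.

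The comparison was widened to interferon-induced genes with other names, on a list chosen with earlier results of these data known. That list is therefore no independent check of the members. Of its 50 genes, 49 were tested and 39 were below 0 (median -0.26). At an unadjusted p under 0.05, 13 were lower, where 3.94% of all tested genes were, and 0 higher, where 3.57% were. None passed the adjusted threshold in edgeR, and DESeq2 called 2, where it called 1.65% of all genes. Without Ang II replicate 1, 47 were below 0, an unadjusted p under 0.05 was found for 28 on the lower side, where 7.6% of genes lay, and Lgals3bp passed with an adjusted p of 0.0457. Gvin1, a giant interferon-inducible GTPase, had 15.7, 15.5 and 16.0 CPM in Ang II hearts, against 36.3, 28.2 and 27.2 CPM in control hearts. Its groups stood clear of each other (log2 difference -0.96, SE 0.16, adjusted p = 0.249). Uba7 and Ube2l6, the activating and conjugating enzymes for ISG15, were among the 13, with log2 differences of -0.43 and -0.87. Ciita, the interferon gamma-induced activator of class II genes, had 0.759, 0.427 and 0.365 CPM in Ang II hearts, against 1.62, 1.17 and 1.53 CPM in control hearts. The peptide transporter Tap1 (-0.95), Sp100 (-0.78), Herc6 (-0.76), Trim30a (-0.55) and the chemokine Cxcl10 (-1.29) were others of them.

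Markers of other cell types lay on both sides of the control level. All 7 cardiomyocyte markers were above 0, with a median log2 difference of 0.23, 1 of them with an unadjusted p under 0.05. The 6 smooth muscle and pericyte markers were split, 3 above 0 and 3 below (median 0.05). Of 10 endothelial markers 7 were below 0, and Cdh5, Kdr, Tek and Vwf were lower at an unadjusted p under 0.05 (log2 differences -0.43, -0.77, -0.48 and -0.59). Their summed level was 144.8 to 150.5 FPKM in Ang II hearts, against 142.5 to 185.9 FPKM in control hearts. Of 12 macrophage markers 8 were below 0 and Adgre1 was lower at an unadjusted p under 0.05, with a summed level of 163.2, 91.3 and 106.5 FPKM in Ang II hearts, against 83.0, 125.8 and 108.5 FPKM in control hearts. The sum was highest in Ang II replicate 1, but the median marker there was at -0.11 from the control mean on the log2 scale, with 4 of 12 markers above it, and control replicate 2 had the highest median (0.15, 9 of 12 above). Of 10 lymphocyte markers 5 were tested, 4 below 0 and 1 above, none with an unadjusted edgeR p under 0.05. All 10 summed to a low level, 0.671 to 0.725 FPKM in Ang II hearts, against 0.873 to 1.05 FPKM in control hearts. Cd3e, a defining gene of T cells, was at 0 in some libraries of each group. Of 6 dendritic cell markers 4 were tested, 2 above 0 and 2 below. Their list summed to 39.2, 17.2 and 20.3 FPKM in Ang II hearts, against 26.7, 28.2 and 30.1 FPKM in control hearts. The sum was highest in Ang II replicate 1, but the median of the 4 tested was not. Measured from the control mean on the log2 scale, that median was -0.17, -0.29 and -0.11 in Ang II hearts, against 0.09, 0.31 and -0.37 in control hearts. Siglech, the listed gene of plasmacytoid dendritic cells, was at 0 in some libraries of each group. Red cell markers summed to 603.4 to 639.4 FPKM in Ang II hearts, against 1132 to 2011 FPKM in control hearts, and 5 of 6 were lower at an unadjusted p under 0.05. All 4 neutrophil markers tested were below 0 (median -1.47), 1 of them with an unadjusted p under 0.05, with a summed level of 2.2, 5.67 and 3.78 FPKM in Ang II hearts, against 14.3, 9.36 and 4.1 FPKM in control hearts. Of 6 fibroblast markers, 4 were below 0 and 2 above, and Col1a1, Col3a1 and Tcf21 were lower at that threshold. Without Ang II replicate 1, 10 of 10 endothelial, 11 of 12 macrophage and 4 of 4 neutrophil markers were below 0, fibroblast markers were split with 3 of 6 above 0, and 6 of 7 cardiomyocyte and 5 of 6 smooth muscle and pericyte markers were above 0. The part of these cell types in the members' differences was not tested. In whole hearts, fewer cells of a type and less RNA per cell cannot be told apart.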

How the data were processed

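Hearts of 6 mice were compared, 3 given Ang II and 3 controls, as the labels name them. Per the labels' protocols, poly(A) RNA with an integrity number above 7 was sequenced as paired-end libraries. The submitters' processing notes name Bowtie 0.12.2, HISAT2 2.0 and StringTie 1.3.0 without their roles, and the build mm8. GENCODE M21, an annotation of GRCm38, shares 55141 gene IDs with the table, and coordinates were the same for 51957 (94.2%), so positions are given on GRCm38. The same holds for 70 of the 78 members; the positions of Irf1, Ifih1, Isg15, Isg20, Oas1b, Gbp6, Gbp8 and Gbp9 are as the table gives them. Strandedness is not given in the sources used here.

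The deposited table holds, per the file headers, an FPKM value and an estimated count for each gene and library. FPKM was taken from the authors unaltered (0.0001 marks a 0), and the authors' estimated counts are whole numbers and were used as such. The estimated counts were tested with edgeR 4.0.16 in R 4.3.3 (two-sided quasi-likelihood test after filterByExpr and TMM scaling, Benjamini-Hochberg adjustment over all tested genes, threshold 0.05). The test was also run on simulated data with the same spread in every library and planted changes larger than those of the members. That run therefore does not show how the test behaves with an outlying library or with smaller changes. CPM used the scaled library sizes. Rounded estimates are not raw counts, and the fit treats them as if they were. No 2 libraries were the same, with a chi-square per degree of freedom of 31.6 to 441.8 between hearts of a group. P-values measure the spread between these hearts only.

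DESeq2 1.42.0 and limma 3.58.1 (on log2 of FPKM plus 0.5, and voom with library weights), other scalings, filters and pseudocounts, the replicate number as a block and each library left out in turn were run as alternatives. Figures were drawn with matplotlib 3.10.9.

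The members and gene lists were chosen with earlier results of these data known. Values in every library are given for members with an unadjusted p under 0.05, for those called without any 1 library, and for a preset list of 36 genes, of which Ifi30 has no protein-coding row here. Irf4, Gbp5, Gbp10, Oas1a, Oas2, Ifi202b, Ifi203, Ifi205 and Ifi27l2a were chosen after their values were seen. Results for 2 members are not reported here by name; the counts and medians over families include them. Promoters come from RefSeq.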

Additional observations from a re-analysis of the deposited data

How the results depend on the processing

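With all 6 libraries edgeR called 0 members, with 8 lower and 1 higher at an unadjusted p under 0.05. Leaving out 1 library at a time gave 0 to 1 members called, 5 to 23 lower, 1 to 4 higher, a median log2 difference of -0.37 to -0.10 and 0 to 129 genes called in all. The highest counts came without Ang II replicate 1, and 5 lower came without control replicate 2. Without Ang II replicate 1, 7.6% of all tested genes were lower and 7.75% higher at an unadjusted p under 0.05. DESeq2 called 276 genes and 3 members. Voom with library weights called 348 of 16759 genes and 6 of 68 members (Mx2, Gbp3, Oasl2, Gbp7 and Ifi208 lower, Igtp higher). Voom gave 27 lower and 4 higher at an unadjusted p, with a median of -0.42, and weighted Ang II replicate 1 at 0.148. Shares of all tested genes at an unadjusted p under 0.05 are given for DESeq2 and for edgeR with and without Ang II replicate 1. The other alternatives have no such share here, so their member counts cannot be read against a background. No filter on low counts gave 12 genes called and 2 members higher. Limma on log2 FPKM with pseudocounts of 0.5, 0.1 and 1 called 3, 2 and 3 genes and 0 members, with 2 members lower in each and 0, 0 and 1 higher; with no filter it called 1 gene, with 3 members lower and 0 higher. These differences' causes were not tested. Median-of-ratios and upper-quartile scaling gave 7 genes called and 8 and 7 members lower. With the replicate number as a block, 0 genes and 0 members were called, 8 were lower, 1 was higher and the median was -0.24. Deviations of log2 CPM from the group mean correlated at 0.0777, 0.112 and -0.0372 between same-numbered hearts. Between other pairs of hearts they correlated at -0.128 to 0.0755. With 3 hearts per group this cannot decide whether the numbers pair them. Leaving out the 4 members matched by name only, chosen after seeing the data, left 8 lower, 1 higher and a median of -0.20. Of 38 named members tested, 14 changed sign in at least 1 of 16 alternatives, but none of the 9 with an unadjusted p under 0.05. Counts as low as 36 for Ifi208 limit how small a change in such genes could be seen.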

Other observations

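Of the members too low to test, Ifi202b, a PYHIN gene, had 27, 0 and 11 counts in Ang II hearts, against 0 counts in each of the 3 control hearts. Its neighbours in the cluster share sequence, so these counts are uncertain between copies.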
